A study of Mus musculus with 20 samples.

Results

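RNA levels of 10 genes that encode activator protein 1 (AP-1) and immediate early transcription factors were followed in macrophages of the cranial dura mater (dCAMs) after systemic endotoxin. The genes are Fos, Fosb, Fosl1 and Fosl2 of the Fos family, Jun, Junb and Jund of the Jun family, the related leucine zipper factors Atf3 and Batf, and the zinc finger factor Egr1. They were chosen by symbol, with earlier results of these data known. They make up 10 of the 33243 gene rows of the count table, and all 10 passed the filter on low counts, which left 16632 genes for testing. The cells came from 10 Ccr2creERT2/+ R26tdT/tdT mice, which were young adults at the first gavage per the study's methods. In every mouse, oral BLZ945, which blocks CSF1R, had been given for 7 days (200 mg per kg) to deplete macrophages, and tamoxifen at 2 mg per day was injected on the last of these days and 2 and 4 days later. Tamoxifen activates the Cre recombinase driven by Ccr2, so that tdTomato (tdT) marks cells that expressed Ccr2 at that time and their progeny, and tdT− cells may include progeny of Ccr2-expressing cells that escaped recombination. At 8 weeks after the last gavage, 5 mice received lipopolysaccharide (LPS) at 2.5 mg per kg and 5 received PBS (CTL), and the dura was taken 12 h afterwards. A tdT+ and a tdT− library was sorted from each mouse from the CD45int CD11b+ CD206int-high gate, which gave 20 libraries in 4 groups of 5. The CTL mice carry the numbers 174, 175, 177, 178 and 179, and the LPS mice 54, 56, 59, 60 and 61. All mice had been depleted and recombined, so no group stands for undisturbed dura.

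AP-1 is a dimer. A Fos protein needs a Jun partner to bind DNA stably, whereas Jun proteins also pair with each other and with Atf or Batf proteins. Immediate early genes are transcribed within minutes of a stimulus without new protein synthesis, through factors that are already present and are activated by MAP kinases, and their short-lived mRNAs usually fall again within hours. In macrophages, LPS acts through Toll-like receptor 4 and induces many of these genes early, while Atf3 is known as a repressor that limits cytokine transcription downstream of the same receptor. Enzymatic digestion at warm temperature, as used to free dCAMs from the dura, is also known to induce immediate early and heat shock genes.

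The region before the start of transcription was read for motifs known from this class of genes. RefSeq promoter windows (GRCm38.p6) of 8 of the 10 genes were used, and the 250 bases before the start site were searched on both strands; those of Fosl1 and Egr1 were not analysed here. The 140 bases that precede the start site are given for Fos, the most abundant of the genes, and for Jun, Junb and Atf3, which fell in tdT− dCAMs. Each runs 5′ to 3′ on the strand of its gene, and capitals mark the motif TGACG in either orientation, which is the core of the cAMP response element, and the TATA box TATAAA.
Fos, chr12:85473750-85473889, plus strand: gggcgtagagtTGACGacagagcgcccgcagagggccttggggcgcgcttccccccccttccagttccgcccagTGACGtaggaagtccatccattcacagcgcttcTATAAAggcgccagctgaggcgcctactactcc
Jun, chr4:95052223-95052362, minus strand: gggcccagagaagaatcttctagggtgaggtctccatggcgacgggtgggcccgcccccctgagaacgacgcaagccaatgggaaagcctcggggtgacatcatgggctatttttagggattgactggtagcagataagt
Junb, chr8:84978749-84978888, minus strand: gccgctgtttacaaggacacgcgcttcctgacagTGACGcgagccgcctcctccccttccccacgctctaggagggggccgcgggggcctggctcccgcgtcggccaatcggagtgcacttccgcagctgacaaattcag
Atf3, chr1:191183334-191183473, minus strand: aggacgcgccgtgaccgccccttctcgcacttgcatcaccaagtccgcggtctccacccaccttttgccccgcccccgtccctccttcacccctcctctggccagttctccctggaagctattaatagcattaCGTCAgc
The Fos window held 2 TGACG motifs, which begin at −129 and −66 from the start site, and a TATA box that begins at −33. Junb held 1 TGACG at −106, and Atf3 held 1 in reverse orientation (CGTCA) at −7, next to its start site. No marked motif was found in the Jun window. Of 32851 RefSeq windows of the same length, 17.8% held TGACG and 12.4% held TATAAA, so single matches were common. The full AP-1 site TGACTCA (4.46% of windows) and the full cAMP response element TGACGTCA (1.55%) were found in 0 of the 8 windows. The same was true of the NF-kB motif (0.980% of windows) and the CArG box bound by serum response factor (1.47%). Bases further upstream than 250 were not searched, so these absences hold for the windows only and not for the genes. The Egr1 motif GCGNGGGCG (4.70%) was found in Fosb at −50 and in Fosl2 at −79, and further TGACG motifs in Fosb at −60 and Batf at −98. The Atf3 window is internal to the GENCODE gene, which spans chr1:191170296-191218039 and has more than 1 start site.

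Before the results, the state of the libraries is given. Totals ranged from 6017650 to 12208203 counts in CTL and from 12073566 to 18925908 counts in LPS libraries, so that depth moved with treatment. At least 10 counts were reached by 6671 to 9365 genes in tdT− CTL, 10024 to 11032 in tdT+ CTL and 10930 to 11987 in LPS libraries. Macrophage markers were present in all 20 libraries, and the summed level of the 9 macrophage markers (Mrc1, Csf1r, Pf4 and others) lay between 5770 and 16221 CPM (counts per 1e+06 of the TMM-scaled library total). The 3 T cell markers summed to at most 9.02 CPM. Summed neutrophil markers ranged from 0.733 to 180 CPM in CTL and from 102 to 746 CPM in LPS libraries. In LPS libraries this sum was mostly S100a8 (100 to 625 CPM in tdT− and 100 to 465 CPM in tdT+) and, in tdT− only, Retnlg. Retnlg measured 23.2 to 642 CPM in tdT− LPS and at most 1.02 CPM in tdT+ LPS libraries. S100a9, Ly6g, Camp and Ltf were at most 3.58 CPM in any LPS library. The tdT− CTL library of mouse 179 reached 3786 CPM over 4 fibroblast markers, against at most 819 CPM in any other library. Among 9 of the 10 factors (Fosl1 left out because it was near 0), the tdT+ CTL library of mouse 174, which was the smallest library, was the lowest of its group for 9. The part of depth and of other cell types in the results was not tested. Because depth moved with treatment, it cannot be told apart from LPS in this design. Results that rest on the named libraries of mice 179 and 174 are also given without them. In a bulk library, fewer cells of a kind and less RNA per cell cannot be told apart.

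The 10 genes together took up a large share of the counts of dCAMs from CTL mice. They accounted for 1.88% ± 0.242 of all counts in tdT− CTL, 0.879% ± 0.136 in tdT− LPS, 1.92% ± 0.420 in tdT+ CTL and 1.04% ± 0.116 in tdT+ LPS libraries (SD, n = 5 libraries each). Fos was among the most abundant genes of the count table, with a rank between 8 and 17 of all genes in tdT− CTL and between 11 and 33 in tdT− LPS libraries. That table held 0 symbols that begin with mt-, the prefix of mitochondrial genes, so shares and ranks are without them. Per kilobase of exon, the mean order in tdT− CTL was Fos (2733 CPM per kb), Junb (1542), Egr1 (1028), Atf3 (667), Jun (549), Jund (300.2), Fosb (47.5), Batf (45.7), Fosl2 (21.7) and Fosl1 (0). The ranges of Atf3 and Jun, Jun and Jund, Fosb and Batf, and Batf and Fosl2 overlapped. Within libraries, however, Jun exceeded Jund and Batf exceeded Fosl2 in 5 of 5, whereas Atf3 exceeded Jun in 3 and Fosb exceeded Batf in 2 of 5. In tdT− LPS libraries Atf3 stood in place 7 with 27.8 CPM per kb, below Batf at 43.1 CPM per kb and without overlap with it.

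**Figure D1:**
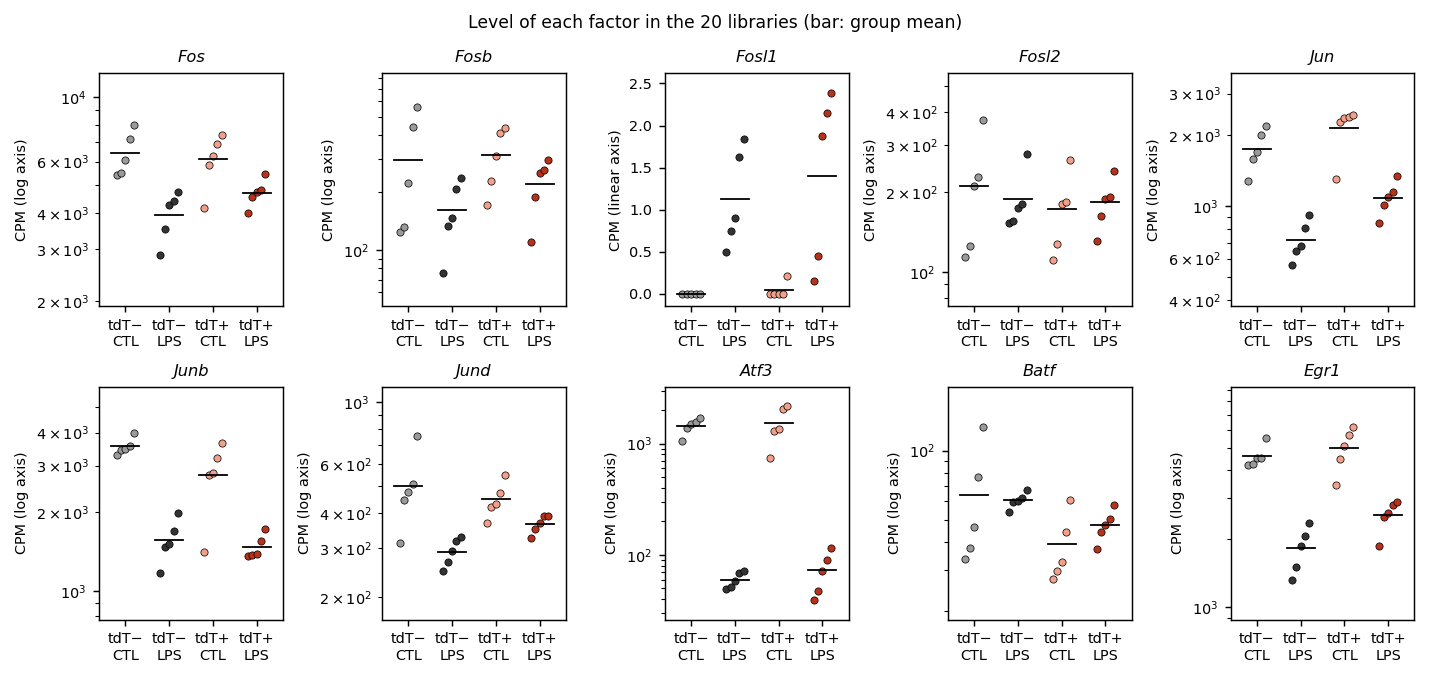
Levels of the 10 factors in CPM in each of the 20 libraries, by population and treatment; points are libraries, bars are group means, and all axes are logarithmic except that of Fosl1. Atf3 lies between 736 and 2173 CPM in the 10 CTL libraries and between 39.2 and 116 CPM in the 10 LPS libraries.

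The first comparison asked how LPS changed the factors in tdT− dCAMs 12 h after injection. Atf3, Egr1, Jun and Junb fell and Fosl1 rose, so that 5 of the 10 were called, where 11.5% of all genes tested were called. A call required a log2 fold change above 1 or below −1 together with an adjusted p below 0.05. Of all genes tested, 4.27% were called lower and 7.20% higher. Log2 fold changes were below 0 for 9 of the 10 genes, and their median was −0.83 against 0.02 over all genes tested. The groups did not overlap for 6 of the 10 (Fos, Fosl1, Jun, Junb, Atf3, Egr1), against 12.6% of all genes tested (9.32% with LPS higher and 3.31% with LPS lower). The count of called factors was also 5 without the tdT− CTL library of mouse 179.

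In tdT+ dCAMs, Atf3 alone was called (1 of 10), where 5.89% of all genes were called in either direction, 3.37% higher and 2.52% lower. Jun, Junb and Egr1 had adjusted p under 0.05 as well but stayed just under the fold threshold, at log2 fold changes of −0.99, −0.91 and −0.97. The median of the 10 was −0.43 against 0.01 over all genes tested, and 2 genes (Atf3 and Egr1) showed no overlap of the groups, against 17.8% of all genes (10.6% with LPS higher and 7.19% with LPS lower). This count depended on single libraries and on the fit. Without the tdT+ CTL library of mouse 174 alone, 4 genes were called (Jun −1.12, Junb −1.07, Egr1 −1.08 and Atf3), and with mouse as a replicate block in voom 3 were called (Atf3, Jun at −1.12 and Fosl1). With any 1 mouse left out, between 1 and 4 were called. Summed macrophage markers ran from 13923 to 16221 CPM in tdT+ CTL and from 7831 to 10154 CPM in tdT+ LPS libraries, and their part in these results was not tested.

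**Figure D2:**
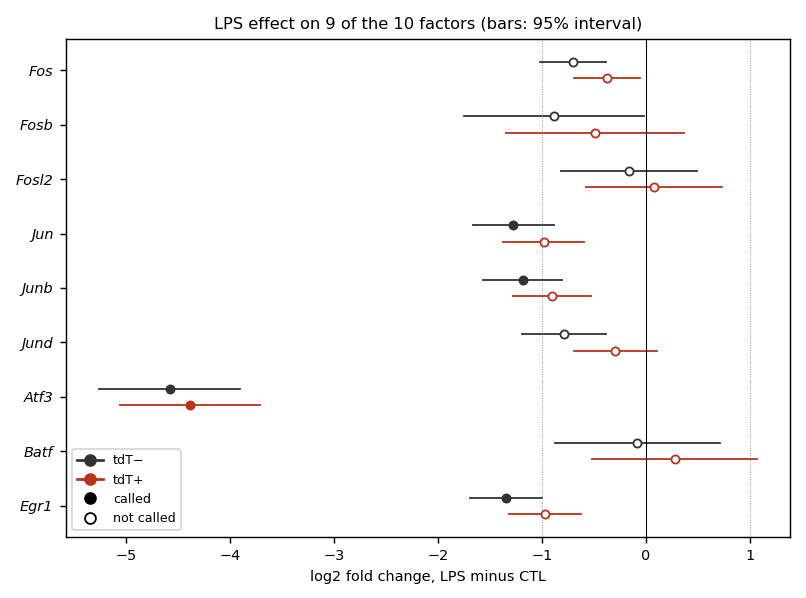
Log2 fold change of LPS minus CTL with its 95% interval for 9 factors, in tdT− (black) and tdT+ (red) dCAMs; filled points were called, dotted lines mark the fold threshold, and Fosl1 is left out because its CTL libraries were near 0. Atf3 stands apart at −4.58 and −4.39, and Jun, Junb and Egr1 lie beyond −1 in tdT− and within it in tdT+ dCAMs.

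Atf3, which binds DNA as a homodimer or with Jun proteins and is induced by many forms of stress, was the factor that fell most. In tdT− CTL libraries it measured 1056 CPM (mouse 174), 1488 (175), 1693 (177), 1373 (178) and 1575 CPM (179). In tdT− LPS libraries it measured 57.7 CPM (54), 49.6 (56), 69.4 (59), 51.6 (60) and 71.3 CPM (61). Every LPS library lay far below every CTL library, and the means differed 24.0-fold. The log2 fold change was −4.58 ± 0.33 (SE; edgeR quasi-likelihood test, adjusted p = 6.76e-09), which placed Atf3 at rank 12 of all genes by p. In tdT+ libraries Atf3 measured 736 (174), 1354 (175), 2068 (177), 2173 (178) and 1288 CPM (179) in CTL mice. The tdT+ LPS libraries held 39.2 (54), 47.4 (56), 89.7 (59), 71.8 (60) and 116 CPM (61). These groups did not overlap either, with means that differed 20.9-fold and a log2 fold change of −4.39 ± 0.32 (edgeR, adjusted p = 8.49e-09).

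Egr1, a zinc finger factor that is induced through serum response factor and binds GC-rich promoters, was the next most abundant gene after Fos in CPM. In tdT− CTL libraries it measured 4222 CPM (174), 5515 (175), 4270 (177), 4511 (178) and 4529 CPM (179). The tdT− LPS libraries held 1495 (54), 2352 (56), 2049 (59), 1321 (60) and 1853 CPM (61), all below the CTL libraries. The log2 fold change was −1.35 ± 0.17 (edgeR, adjusted p = 1.27e-05). In tdT+ dCAMs Egr1 ranged from 3439 to 6200 CPM (median 5088) in CTL and from 1859 to 2903 CPM (median 2601) in LPS libraries, again without overlap. Its log2 fold change there was −0.97 ± 0.17 (edgeR, adjusted p = 0.000455), and its interval from −1.32 to −0.63 spans the fold threshold.

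Of the Jun family, Jun and Junb fell in tdT− dCAMs. Jun, which can form AP-1 on its own, measured 1700 (174), 1998 (175), 1276 (177), 2198 (178) and 1580 CPM (179) in tdT− CTL libraries. It measured 646 (54), 807 (56), 914 (59), 676 (60) and 565 CPM (61) in tdT− LPS libraries, which did not overlap with CTL. The log2 fold change was −1.28 ± 0.19 (edgeR, adjusted p = 7.59e-05). In tdT+ dCAMs the CTL libraries of mice 175, 177, 178 and 179 lay between 2285 and 2441 CPM and that of mouse 174 at 1301 CPM. The tdT+ LPS libraries ran from 849 to 1340 CPM, so that 1 LPS library (mouse 54) exceeded the CTL library of mouse 174, and the log2 fold change was −0.99 ± 0.19 (edgeR, adjusted p = 0.00130).

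Junb, a Jun protein that activates transcription more weakly than Jun and is a known partner of Batf, varied little among tdT− CTL libraries. Its tdT− CTL libraries measured 3549 (174), 3439 (175), 3996 (177), 3453 (178) and 3298 CPM (179). The tdT− LPS libraries held 1973 (54), 1688 (56), 1466 (59), 1511 (60) and 1166 CPM (61). All were below the lowest CTL library, with a log2 fold change of −1.18 ± 0.18 (edgeR, adjusted p = 0.000132). In tdT+ dCAMs Junb averaged 2760 ± 839 CPM in CTL and 1474 ± 156 CPM in LPS libraries (SD, n = 5), and the groups overlapped only through mouse 174 at 1400 CPM. Its log2 fold change there was −0.91 ± 0.18 (edgeR, adjusted p = 0.00237). Jund, which is expressed more constantly than its relatives in most cells, averaged 501 ± 163 CPM in tdT− CTL and 290 ± 33.7 CPM in tdT− LPS libraries. Its log2 fold change of −0.79 ± 0.19 had an adjusted p of 0.00915 (edgeR) but did not reach the fold threshold, and in tdT+ dCAMs it was −0.30 ± 0.19 (adjusted p = 0.460).

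Fos, the prototype of the immediate early genes, was the most abundant of the 10 in every group. It measured 6065 (174), 7187 (175), 5498 (177), 8021 (178) and 5375 CPM (179) in tdT− CTL libraries. In tdT− LPS libraries it measured 3528 (54), 4719 (56), 4252 (59), 4385 (60) and 2874 CPM (61), without overlap. The log2 fold change of −0.70 ± 0.15 had an adjusted p of 0.00364 (edgeR), and the fold stayed below the threshold for a call. In tdT+ dCAMs Fos averaged 6108 ± 1227 CPM in CTL and 4695 ± 521 CPM in LPS libraries, which overlapped, and the log2 fold change was −0.38 ± 0.15 (adjusted p = 0.166).

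Fosb, which is close to Fos in sequence, had the widest spread of the 10 in tdT− CTL libraries relative to its mean, apart from Fosl1 at 0. It ranged from 124 to 562 CPM (median 225) in tdT− CTL and from 76.0 to 238 CPM (median 147) in tdT− LPS libraries. The log2 fold change was −0.88 ± 0.42 (edgeR, adjusted p = 0.158), and −0.49 ± 0.41 in tdT+ dCAMs (adjusted p = 0.612).

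Fosl1 (Fra-1), which lacks the transactivation domain of Fos, was the 1 factor called higher after LPS, and it was rare. In tdT− CTL mice 5 of 5 libraries held 0 counts, and the tdT− LPS libraries held 7 (54), 10 (56), 30 (59), 11 (60) and 20 counts (61). All 5 LPS libraries thus lay above the floor of 3 counts. Their mean level was 2.98 times the floor of the CTL libraries in CPM. This is a lower bound on the ratio of the means and leaves out the spread of the LPS libraries. The call in edgeR had an adjusted p of 0.00991. In tdT+ CTL libraries Fosl1 had 0 counts in 4 libraries and 2 counts in that of mouse 175, and the LPS libraries held 6 (54), 26 (56), 27 (59), 2 (60) and 42 counts (61). The library of mouse 60 held no more counts than the highest CTL library while the other 4 exceeded the floor. The LPS mean was 4.14 times the CTL floor, but Fosl1 was not called in tdT+ dCAMs (edgeR, adjusted p = 0.0683), so no rise is shown there. The fitted fold change of a gene at 0 depends on the prior count and is no measure of its size.

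Fosl2 and Batf were not called in either population, and their groups overlapped. Fosl2 (Fra-2), the other Fos protein without a transactivation domain, averaged 210 ± 104 CPM in tdT− CTL, 188 ± 51.8 in tdT− LPS, 173 ± 59.8 in tdT+ CTL and 183 ± 40.4 CPM in tdT+ LPS libraries (SD, n = 5). Its log2 fold changes were −0.16 (95% interval −0.81 to 0.49) and 0.08 (−0.58 to 0.73). Batf, which dimerizes with Jun proteins and acts with interferon regulatory factors in lymphocytes and dendritic cells, averaged 64.3 ± 38.9, 60.6 ± 4.78, 39.0 ± 13.8 and 47.3 ± 7.73 CPM in the same order. Its log2 fold changes were −0.09 (−0.88 to 0.71) and 0.28 (−0.52 to 1.07). For Batf in tdT+ dCAMs the interval reaches past the fold threshold.

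The study sorted dCAMs by tdT to separate cells by their origin, and the next comparison asked whether the factors differ between the populations of the same mice. In CTL mice 0 of the 10 were called, where 4.28% of all genes were called (3.01% higher and 1.27% lower in tdT+), 0 had an unadjusted p under 0.05 and 0 were called by DESeq2. Junb was lower in the tdT+ library in 5 of 5 CTL mice, where 9.46% of all genes had the same sign in all 5, counted over both directions. The log2 difference was −0.36 (95% interval −0.74 to 0.01; edgeR without a block, adjusted p = 0.229). With mouse as a replicate block it was −0.31 in voom (adjusted p = 0.0238) and −0.42 in edgeR (adjusted p = 0.163), short of the fold threshold in both, and without mouse 174 it was −0.19. In LPS mice 0 of the 10 were called, where 0.0301% of all genes were called (each lower in tdT+), 2 (Jun and Egr1) had an unadjusted p under 0.05 and 0 were called by DESeq2.

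Even so, 5 of the 10 genes were higher in the tdT+ library in 5 of 5 LPS mice (Fos, Fosb, Jun, Jund, Egr1). Of all genes, 9.90% had the same sign in all 5, counted over both directions. These 5 were measured in the same libraries and are not independent of each other. For Jun the ratio of tdT+ to tdT− was 2.07 (mouse 54), 1.42 (56), 1.19 (59), 1.26 (60) and 1.79 (61), and the log2 difference was 0.59 (0.21 to 0.98; edgeR, adjusted p = 0.913). For Egr1 the ratios were 1.89 (54), 1.23 (56), 1.22 (59), 1.41 (60) and 1.40 (61), with a log2 difference of 0.48 (0.14 to 0.83; adjusted p = 0.913). The intervals of both genes excluded 0 before adjustment, and neither difference passed over all genes. These values are from the fit without a block for mouse. Over 22 alternatives, which include both fits with a replicate block, adjusted p went down to 0.0747 for Jun and 0.188 for Egr1. Neither gene was called under any of them. Heat shock genes, which tissue dissociation also induces, were higher in the tdT+ library of the same mice, with 5 of 10 (Hspa1a, Hspa8, Hsp90ab1, Dnajb1, Hsph1) higher in 5 of 5 LPS mice. Their summed level was 1736 CPM in tdT− and 2216 CPM in tdT+ of mouse 54, and it was higher in tdT+ in the other 4 LPS mice as well (1692 to 2258 against 1912 to 2440 CPM). In LPS mice the 4 dendritic cell markers also separated the populations, with sums of 230 to 634 CPM in tdT− and 4.62 to 18.2 CPM in tdT+ libraries. The tdT− LPS sum was mostly Ccr7 (222 to 599 CPM), and Flt3 and Zbtb46 reached at most 20.8 and 14.1 CPM there. In CTL libraries the sums overlapped, at 12.8 to 556 CPM in tdT− and 7.54 to 40.0 CPM in tdT+. In CTL mouse 177 the tdT+ library was the higher (40.0 against 30.7 CPM). The part of heat shock genes or of other cells in the differences between populations was not tested.

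**Figure D3:**
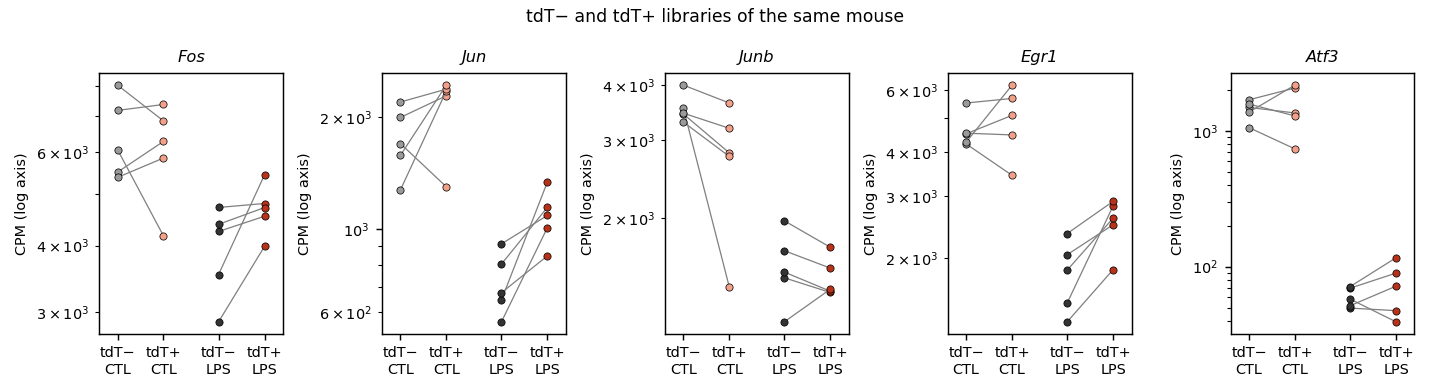
Levels in CPM (log axis) of 5 factors in the tdT− and tdT+ library of each mouse, joined by a line, with CTL mice on the left and LPS mice on the right of each panel. In LPS mice the lines of Fos, Jun and Egr1 rise from tdT− to tdT+ in 5 of 5 mice, and in CTL mice those of Junb descend in 5 of 5.

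Whether the LPS effects themselves differed between the populations was tested by their difference (tdT+ effect minus tdT− effect). Here 0 of the 10 were called, where 1.26% of all genes were called (0.0902% higher and 1.17% lower), with 0 at an unadjusted p under 0.05 and 0 by DESeq2. The differences were 0.20 for Atf3 (95% interval −0.63 to 1.02), 0.29 for Jun (−0.25 to 0.83), 0.28 for Junb (−0.25 to 0.81), 0.37 for Egr1 (−0.11 to 0.86), 0.32 for Fos (−0.13 to 0.77) and 0.49 for Jund (−0.08 to 1.06). Jund had the smallest adjusted p of the 10 (0.487, edgeR). A call in tdT− and not in tdT+ dCAMs is thus not shown to be a difference between them.

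Other genes of the pathway were read from lists. Among 15 further immediate early genes, 6 fell and 0 rose in tdT− dCAMs after LPS, where 4.27% of all genes were called lower and 7.20% higher. The median log2 fold change of the 15 was −1.03. The 6 were Ier2 (−1.03), Ier5 (−1.44), the nuclear receptors Nr4a1 (−1.19) and Nr4a2 (−3.06), the quiescence factor Klf2 (−1.17) and the antiproliferative gene Btg2 (−1.17). Calls were lost for Ier2 without mouse 174, 178, 179 or 60 (its fold then fell short), for Nr4a1 without mouse 179, and for Nr4a2 without mouse 56, 60 or 61 (adjusted p up to 0.194 over the alternatives). In tdT+ dCAMs 1 of the 15 fell (Ier5, −1.14) and 0 rose, where 2.52% of all genes were called lower and 3.37% higher. The median of the 15 there was −0.42. Zfp36, whose product degrades cytokine mRNAs, had log2 fold changes of −0.82 in tdT− (edgeR, adjusted p = 0.00307) and −0.41 in tdT+ dCAMs. Dusp1, a phosphatase that switches off p38 and JNK, went the other way at 0.19 and 0.70 (adjusted p = 0.467 and 0.0118), and neither value reached the fold threshold. Nr4a1 in tdT+ dCAMs was at −0.34 (adjusted p = 0.622).

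Ier2, an immediate early gene of little known function, was the 1 gene of these 15 whose LPS effect differed between the populations, by 1.08 ± 0.26 (edgeR, adjusted p = 0.0463). Of all genes tested, 1.26% were called in that difference. In tdT− CTL libraries it measured 2028 (174), 1046 (175), 1068 (177), 1967 (178) and 1990 CPM (179), and in tdT− LPS libraries 685 to 897 CPM. The tdT+ libraries ran from 676 to 1032 CPM in CTL and from 751 to 1011 CPM in LPS mice. The tdT− CTL libraries of mice 175 and 177 thus lay near the tdT+ libraries and the other 3 above them, and the LPS effect in tdT+ dCAMs was 0.05. The call on the difference was lost under 17 of 21 alternatives, where adjusted p reached 0.169.

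Of the other leucine zipper factors of the AP-1 superfamily, Maf and Maff fell in tdT− dCAMs, at log2 fold changes of −1.84 and −1.95. The call of Maff was lost without mouse 56, 59, 60 or 61 (adjusted p up to 0.137 over the alternatives). Maf, a factor of macrophage identity, averaged 425 ± 147 CPM in tdT− CTL and 118 ± 27.4 CPM in tdT− LPS libraries (SD, n = 5), without overlap. In tdT+ dCAMs Maf fell as well (−1.69), from 443 ± 74.1 CPM in CTL to 137 ± 33.6 CPM in LPS libraries.

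Of 18 MAP kinases, their activators and serum response factors, 4 rose (Mapk8, Map2k2, Map3k8, Srf) and 1 fell (Mapk3, which encodes ERK1) in tdT− dCAMs. Over all genes tested, 7.20% were called higher and 4.27% lower there. Mapk3 changed by −1.28 and Map3k8, the kinase that links Toll-like receptors to ERK, by 1.64. Map2k2 (MEK2) changed by 1.11. Mapk8 (JNK1) was at 0 to 4 counts in tdT− CTL libraries and at 11 to 125 counts in LPS libraries. Srf had 0 to 75 counts in tdT− CTL and 266 to 533 counts in tdT− LPS libraries. Part of these CTL values lay at or below the floor of 3 counts, so no fold is given. The tdT− CTL libraries also had fewer genes at 10 counts or more than the libraries of any other group. The part of this in the 4 rises was not tested. The call of Mapk8 was lost without mouse 178 or any single LPS mouse (adjusted p up to 0.095), and that of Map2k2 without mouse 174 (adjusted p up to 0.075 over the alternatives). With the 10 tdT− libraries fitted alone 0 of the 18 were called, with adjusted p of 0.157 for Srf and 0.070 for Mapk3, and the call of Map3k8 was lost there and with voom weights (adjusted p up to 0.118). With the replicate block in voom 11 were called, as were 4523 of all 16632 genes tested. In tdT+ dCAMs 2 fell, Mapk3 (−1.46) and Mapk14 (p38α, −1.18), and 0 rose, where 2.52% of all genes were called lower and 3.37% higher.

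Of the 10 heat shock genes, 4 fell and 0 rose in tdT− dCAMs, where 4.27% of all genes were called lower (Hspa1a −2.56, Hspa1b −3.76, Dnajb1 −1.62, Hsph1 −1.43). In tdT+ dCAMs 3 fell and 0 rose, where 2.52% of all genes were called lower (Hspa1a −2.59, Hspa1b −3.49, Dnajb1 −1.42). The medians of the 10 were −0.88 and −0.22. Hspa1a and Hspa1b are near-identical copies, so the split of reads between them is uncertain. Summed over the 10 genes, levels ranged from 2653 to 4346 CPM in tdT− CTL, from 1692 to 2258 in tdT− LPS, from 2162 to 4024 in tdT+ CTL and from 1912 to 2440 CPM in tdT+ LPS libraries. The call of Hsph1 was lost without mouse 174, 54, 56, 59 or 60 (adjusted p up to 0.175 over the alternatives). The part of dissociation in the levels of the factors was not tested.

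**Figure D4:**
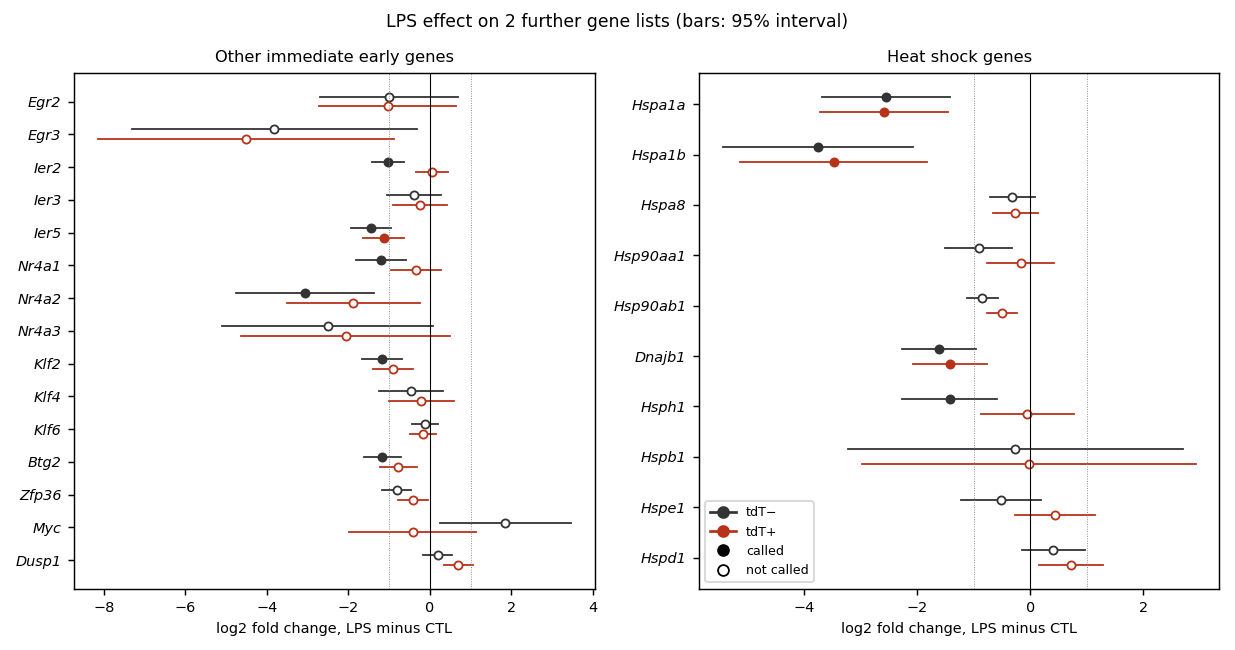
Log2 fold change of LPS minus CTL with its 95% interval for 15 other immediate early genes and 10 heat shock genes in tdT− (black) and tdT+ (red) dCAMs; filled points were called. Called genes lie to the left of 0 in both panels, and Dusp1 lies at 0.19 and 0.70.

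The genes whose pattern over the 20 libraries was most like that of each factor were taken from 5822 well-measured genes by the smallest root mean square difference of centred log2 CPM. Several were other factors of the set: the nearest gene to Jun was Egr1 and the reverse (0.23), Jund was nearest to Fos (0.22) and Fos was nearest to Fosb (0.50). Junb was closest to Btg2 (0.16), followed by Pnrc1 (0.24), and Jund to Cited2 (0.21). Atf3, which spanned 5.78 log2 units over the libraries, had no gene as close, with Rnase4 (0.69), Fcrl2 (0.74) and Mef2c (0.78) as its nearest. Fosl2 was nearest to Oaz2 (0.32) and Batf to Wipf1 (0.32).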

How the data were processed

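Bulk RNA sequencing of sorted dCAMs was analyzed in 20 libraries from 10 mice. The authors aligned reads with STAR and assigned them to genes with featureCounts, and deposited raw counts per gene without scaling. Per the submitters' processing notes the versions were bcl2fastq 2.20, STAR 2.7.11a, featureCounts 2.0.6 and DESeq2 1.46.0. The methods name more than 1 genome build, so gene positions are given from GRCm38 and serve only to locate a gene. Libraries were made from low RNA input with PCR and without molecular identifiers, so floors cover counting error only, and the floor was set at 3 counts per library. Strand use in counting is not given in the sources used here.

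The labels gave the groups. A total of at least 10 counts was required, which left 16632 genes. After TMM scaling, all 20 libraries were fitted together, 1 mean for each group, by the edgeR (4.0.16) quasi-likelihood test under R 4.3.3, and 5 contrasts were tested: LPS against CTL in each population, tdT+ against tdT− in each treatment, and the difference of the LPS effects. A gene was called at a Benjamini-Hochberg adjusted p under 0.05 over all genes tested and an absolute log2 fold change over 1. DESeq2 1.42.0, limma 3.58.1 (voom), other scalings, filters, blocks and left-out mice served as alternatives, and 3 alternatives that leave out 1 library each were chosen after seeing the data. The fitting code was tested on simulated data. Log2 changes are shown with their SE. For LPS against CTL within a population, p-values rest on the spread between mice, estimated over all 20 libraries. For the other contrasts the main fit had no term for mouse, so both libraries of a mouse counted as independent. Those p-values do not measure the spread of differences within mice.

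The 10 factors and all gene lists were chosen with earlier results of these data known. All 10 factors are named, list genes are named where they were called, and Dusp1, Ier2, Nr4a1 and Zfp36 are named always. The result of 1 list gene is not reported here. Libraries are paired by mouse, since both populations came from the same animal. Deviations of paired libraries from their group means correlated across genes at −0.00460 to 0.0461 in CTL and 0.228 to 0.449 in LPS mice. Motifs and promoter windows came from RefSeq. Of the other marker lists, monocyte markers summed to 134 to 1095 CPM, mast cell markers to 0 to 90.7, B cell markers to 0 to 114 and endothelial markers to 0 to 61.4 CPM over the groups.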

Additional observations from a re-analysis of the deposited data

Results flagged for a closer look

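Of 39 groups of 5 libraries tested for a library far from the others, 4 held one, and chance flags about 1 in 20 groups. Jun in the tdT+ CTL library of mouse 174 measured 1301 CPM, and the nearest library of that group measured 2285 CPM. Egr1 in the tdT− CTL library of mouse 175 measured 5515 CPM, with the nearest at 4529 CPM. Fosl2 in the tdT− LPS library of mouse 54 measured 278 CPM, with the nearest at 180 CPM. Fosl1 in the tdT+ CTL library of mouse 175 measured 0.212 CPM, which is 2 counts, while the other 4 libraries of that group were at 0.

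The LPS effect on Ier2 differed between tdT+ and tdT− dCAMs by 1.08 on the log2 scale in the test of the difference itself (edgeR, adjusted p = 0.0463).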

How the results depend on the processing

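In tdT− dCAMs 5 factors were called under all 21 alternatives, and 0 were called between the populations or in the difference of the LPS effects under any alternative run. In tdT+ dCAMs the count of 1 moved to 4 with DESeq2, 3 with library totals, 3 with no filter, 4 with the filterByExpr filter, 4 with voom and quality weights and 3 with the replicate block in voom. It ranged from 1 to 4 with a mouse or a library left out (4 without mouse 174, 2 without mouse 175 or 179, 3 without mouse 54 or 56, and 2 without the tdT− CTL library of mouse 174). The replicate block changed no other count of called factors. It ended the call on the Ier2 difference (0.98 in voom, adjusted p = 0.0499 with a fold below the threshold, and 1.03 with mouse as a term in edgeR, adjusted p = 0.169).

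Of 1070 values of the factors under alternatives, 36 changed sign, and 0 of these had been called. Fitted values of Fosl1 depend on the prior count, since its CTL libraries were at 0 to 2 counts, and between populations in LPS mice they were −0.066 and −0.015 with the replicate block in voom and in edgeR. Fosl2 in tdT− dCAMs was 0.040 with voom weights and 0.000436 with the voom block, in tdT+ dCAMs −0.010 with library totals, and its difference of LPS effects −0.031 with voom weights. Between populations in CTL mice, Atf3 was −0.000238 with the edgeR block and Egr1 −0.073 with the voom block. Batf in tdT− dCAMs was 0.16 and 0.15 with voom weights and the voom block. Ier2 in tdT+ dCAMs was −0.047 with library totals and −0.019 with filterByExpr, and ranged from −0.034 to 0.11 with 1 replicate left out. With 1 replicate left out, values between populations in CTL mice ranged from −0.14 to 0.016 for Fos, −0.11 to 0.32 for Fosb and 0 to 2.60 for Fosl1. They ranged from −0.49 to 0.16 for Fosl2, −0.093 to 0.17 for Atf3 and −0.014 to 0.19 for Egr1. Over the other alternatives they reached 0.036 for Fos, 0.26 for Atf3 and 0.22 for Egr1. Fosl2 ranged from −0.34 to 0.15 in tdT−, −0.046 to 0.26 in tdT+ and −0.18 to 0.12 between populations in LPS mice, and Batf from −0.25 to 0.32 in tdT−. Differences of LPS effects ranged from −2.28 to 0.32 for Fosl1, −0.20 to 0.45 for Fosl2 and −0.14 to 0.72 for Batf. The cause was not tested.

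Over all genes, calls in tdT− dCAMs numbered 1907 in edgeR, 882 with the 10 libraries alone and 4523 with the voom block, and in tdT+ dCAMs 979, 2244 and 1571, with 3155 for voom weights. Between populations they ranged from 6 to 2245 (712 in edgeR) in CTL and from 1 to 137 (5 in edgeR) in LPS mice, and for the difference of LPS effects from 62 to 744 (209 in edgeR). The median of all genes in tdT− dCAMs moved from 0.02 to 0.68 with voom weights and 0.76 with the voom block, so changes under these fits are relative to that shift.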
